A study of Mus musculus with 37 samples.

Results

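This report covers 4 microRNAs of liver and gut as they were counted in mouse whole blood, namely mmu-miR-122-5p, mmu-miR-192-5p, mmu-miR-194-5p and mmu-miR-215-5p (the prefix for mouse is left out from here on). They were chosen by name among the 1915 mature microRNAs of the deposited count table, and the first table row of each was taken. Blood came from the retro-orbital sinus of C57BL/6 mice. According to the study these were single-housed males of a learning group trained in the water maze, and the session at the youngest age was a habituation only. Of the 37 libraries 9 were made at 12, 12 at 13.5, 5 at 15 and 11 at 16.5 months of age. All groups share strain, learning group and sampling site, and age is the only label that separates them. Maze experience also differed, however. The methods place the first blood draw ahead of all behavioural work and the later draws a day after a probe test, while another passage of the study has every draw follow a maze session, so age and maze experience cannot be told apart. The design is longitudinal, with mice bled again at successive ages. The labels do not say which libraries come from the same mouse, so p-values between ages treat repeated measures as independent. Tests within an age take each library as a separate mouse. No label names a batch.

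MicroRNAs are short RNAs that guide Argonaute proteins to messenger RNAs, and their choice of target rests mainly on the seed, bases 2 to 8 of the mature strand. miR-122 is the hallmark microRNA of hepatocytes, and its level in plasma is used as a marker of liver injury. miR-192, miR-194 and miR-215 are abundant in liver, intestinal epithelium and kidney, where hepatocyte nuclear factors drive their clusters, and p53 can induce them.

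The mature sequences are shown because they decide which of these microRNAs can be told apart by reads and which share a seed. They are from RefSeq (GRCm38.p6), 5′ to 3′, with the seed in capitals, and 3 of the 4 members were matched in the sequence table.
miR-192-5p: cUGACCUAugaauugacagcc
miR-215-5p: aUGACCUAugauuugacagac
miR-194-5p: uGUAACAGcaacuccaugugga
miR-192-5p lies at chr19:6264857-6264877 (plus strand) and miR-215-5p at chr1:185313610-185313630 (plus strand). miR-194-5p has an identical copy at chr1:185313325-185313346 and at chr19:6264658-6264679, both on the plus strand. miR-192-5p and miR-215-5p share the seed UGACCUA with each other and with no other of the 1679 mature microRNAs in that table. They differ at 3 of their 21 bases, C1A, A12U and C20A, counted from the 5′ end with the base of miR-192-5p first. Each of the 4 possible stretches of 18 bases, the shortest read length kept, holds at least 1 of these differences, and no mismatch was allowed in counting. The seed GUAACAG is held by miR-194-5p alone.

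In the GENCODE annotation of GRCm38 the members sit in 2 clusters. The precursors Mir194-2 (chr19:6264643-6264728) and Mir192 (chr19:6264844-6264932) are 115 bp apart and overlap no other annotated gene. Mir194-1 (chr1:185313319-185313385) and Mir215 (chr1:185313581-185313692) are 195 bp apart and lie in an intron of Iars2, the mitochondrial isoleucyl-tRNA synthetase gene, on the opposite strand. On their own strand they lie in the annotated transcript 2010103J01Rik, Mir194-1 in an intron and Mir215 in an exon.

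The 4 members differed in abundance by orders of magnitude. Over all 37 libraries miR-192-5p had 196089 reads, miR-194-5p had 7276, miR-215-5p had 4330 and miR-122-5p had 13. miR-192-5p ranked 18th of the 1915 microRNAs by reads. Its reads were 27.0 times those of its cluster partner miR-194-5p and 45.3 times those of miR-215-5p, which shares its seed. These are ratios of read numbers, which for RNAs of 21 or 22 bases need no scaling by length, but ligation and amplification can favour one sequence over another. The opposite arms of the precursors were hardly seen. There were 2 reads of miR-122-3p, 7 of miR-192-3p, 2 of miR-194-1-3p, 22 of miR-194-2-3p and 28 of miR-215-3p in all libraries.

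Depth sets what can be said of the rarer members. Red cell miR-486a-5p took a median of 88.3% of the reads of a library when its identical miR-486b-5p row was counted once. Between 140292 and 1131713 reads per library were left outside miR-486 (median 476944). The total of the first rows, which counts miR-486 under both names, was between 2619533 and 20268095. No libraries were identical, and the most similar pair of the same age still differed by 14.6 times its degrees of freedom in a chi-square test of counts.

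miR-122-5p, the hepatocyte marker, was at the edge of detection. A read was found in 10 of 37 libraries, 27 had 0, and the highest library, of 13.5 months, had 4. The 13 reads amount to 0.676 per 1000000 reads outside miR-486, with an exact Poisson 95% interval of 0.360 to 1.16 that covers counting error only. In a single library a count of 0 allows up to 3 reads, so differences between ages were not detectable at this depth and none was tested. miR-802, also a hepatocyte microRNA, was as rare, with 12 reads of miR-802-5p and 6 of miR-802-3p in all. The other liver-enriched microRNA on the list drawn up for comparison, miR-148a-3p, had 29791 reads, but it is found in many other tissues. The liver label was thus not borne out by its defining marker, which was at or near 0, and the name liver microRNAs says where the members are known from, not what source they have here.

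miR-192-5p was well measured in every library, with 307 to 17354 reads, and was lowest at 13.5 months. Levels are counts per 1000000 reads of a library (CPM), with its total scaled by its TMM factor. Because of that scaling the values of different libraries do not add up to the same sum. At 12 months the lowest, median and highest libraries had 391, 701 and 930 CPM. At 13.5 months these values were 233, 392 and 1010 CPM. The 5 libraries of 15 months had 603, 796, 568, 820 and 1203 CPM, and at 16.5 months the lowest, median and highest values were 414, 507 and 752 CPM. The ages overlapped, and 1 library of 13.5 months (replicate 12, 1010 CPM) stood above all others of its age, the next having 618 CPM.

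miR-194-5p, the cluster partner of miR-192-5p on chromosome 19, was also lowest at 13.5 months and covered a narrower range. The lowest, median and highest libraries had 14.6, 25.3 and 30.9 CPM at 12 months and 9.87, 16.3 and 35.3 CPM at 13.5 months. The 15-month libraries had 24.5, 23.9, 19.1, 27.6 and 31.3 CPM. At 16.5 months the values were 11.6, 22.3 and 27.3 CPM. Library 12 of 13.5 months was again the highest of its age, and every pair of ages overlapped.

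miR-215-5p had its lower values at 12 and 13.5 months and its higher ones at 15 and 16.5 months. Its lowest, median and highest libraries had 6.72, 10.6 and 23.7 CPM at 12 months and 4.55, 7.33 and 11.2 CPM at 13.5 months. The 15-month libraries had 11.6, 21.5, 12.1, 17.1 and 21.3 CPM, all above the highest library of 13.5 months. At 16.5 months the values were 9.76, 14.9 and 25.4 CPM. At these levels a library held only 6 to 500 reads of miR-215-5p.

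**Figure D1:**
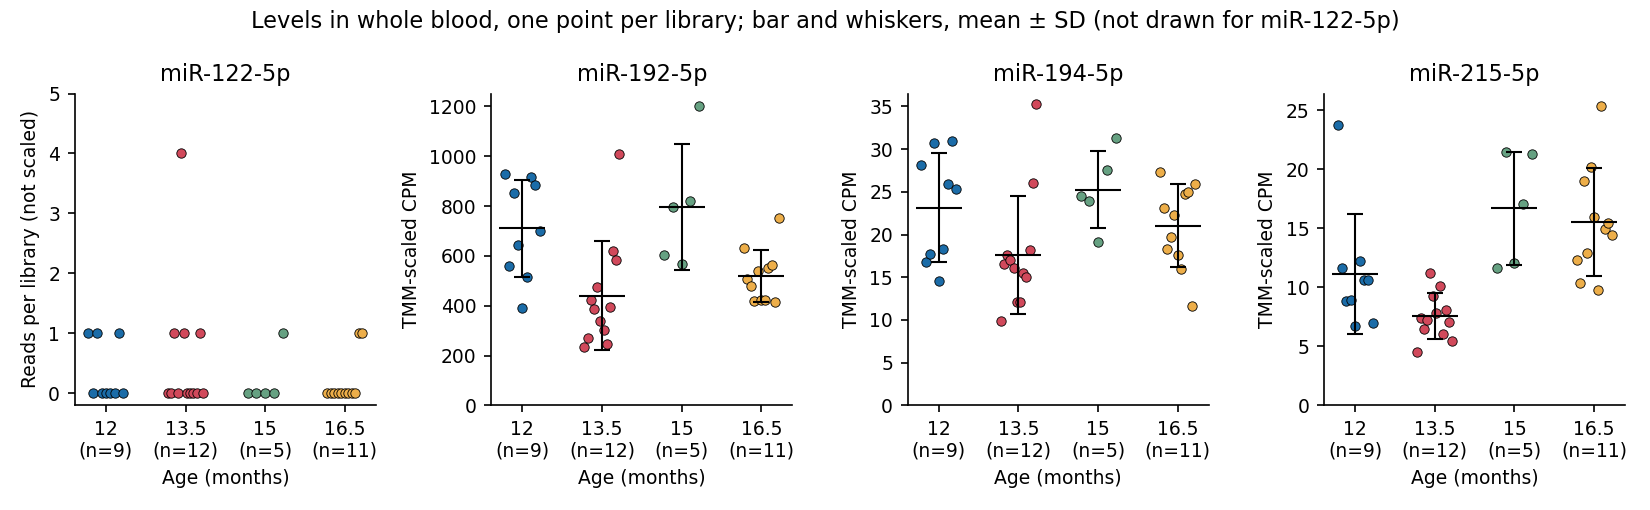
Levels of the 4 members by age in months, each point a library, with reads per library for miR-122-5p and TMM-scaled CPM for the others, and the mean ± SD for the others. miR-122-5p is at 0 in 27 libraries, and the lowest mean of the other 3 is at 13.5 months (440, 17.6 and 7.58 CPM).

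Ordered by age group, miR-192-5p averaged 798 ± 253 CPM in the 5 libraries of 15 months (mean ± SD), 710 ± 197 in the 9 of 12 months, 519 ± 105 in the 11 of 16.5 months and 440 ± 218 in the 12 of 13.5 months. In the same order miR-194-5p had 25.3 ± 4.51, 23.2 ± 6.35, 21.1 ± 4.84 and 17.6 ± 6.86 CPM. miR-215-5p kept the extremes of that order but not its middle, with 16.7 ± 4.77 CPM at 15 months, then 15.5 ± 4.58 (16.5 months), 11.1 ± 5.10 (12 months) and 7.58 ± 1.91 (13.5 months). The 15 and 12 month means of miR-192-5p and miR-194-5p, and the 15 and 16.5 month means of miR-215-5p, differed by less than their SD.

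Whether the members changed with age was tested in edgeR with 1 quasi-likelihood F-test over all ages, adjusted by the Benjamini-Hochberg method over all microRNAs in the fit. miR-192-5p and miR-194-5p were among the 87 microRNAs for which 50% of the libraries or more held over 100 reads. In that fit 58.6% of the microRNAs passed the threshold of 0.05, and 1 of these 2 members did. The adjusted p was 0.00465 for miR-192-5p and 0.112 for miR-194-5p. miR-215-5p had more than 100 reads in only 15 libraries, so it was tested in the same way among the 323 microRNAs that had over 1 read in that share of libraries. There 32.2% passed, and miR-215-5p was among them with an adjusted p of 7.08e-04. In that wider fit the edgeR adjusted p was 0.0408 for miR-192-5p and 0.485 for miR-194-5p. A call for age was thus common in both fits.

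The call of miR-192-5p was lost when TMM took library 5 of 13.5 months as its reference. With each of the 37 libraries as the reference in turn, it held for 36 and was lost for this one (edgeR adjusted p = 0.122). When each library was left out in turn and the factors were computed again, 15 of the 37 fits lost the edgeR call (adjusted p 0.0781 to 0.199), and in all 15 that library had become the reference. The left-out libraries were 2 and 3 of 12 months, 1, 4 and 6 of 13.5 months, all 5 of 15 months, and 4, 5, 6, 7 and 11 of 16.5 months. The fits that kept the reference numbered 16, and all of them kept the call (0.00228 to 0.00879), as did the 6 in which the reference moved to another library (1.86e-04 to 0.00634). With the factors held fixed it held in 37 of 37 (1.26e-04 to 0.0134). miR-215-5p kept its call without any single library. miR-194-5p gained one only without library 12 of 13.5 months, with an edgeR adjusted p of 0.0203. Scaling by the total count alone ended the calls of miR-192-5p and miR-215-5p (edgeR adjusted p = 0.222 and 0.102), and leaving out the read filter ended that of miR-192-5p (0.131).

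In the edgeR fits first described above, all 4 contrasts of members that passed involved the 13.5-month libraries. Calls with that age were also the most common in the whole fit of 87 microRNAs. There 43.7%, 39.1% and 49.4% passed between 13.5 months and 12, 15 and 16.5 months. Between 12 and 15 months 0% passed, between 12 and 16.5 months 19.5%, and between 15 and 16.5 months 3.45%. miR-192-5p fell from 12 to 13.5 months by 0.69 on the log2 scale (SE 0.21, edgeR adjusted p = 0.00655), in a contrast in which 43.7% of the 87 microRNAs passed in either direction and their median change was 0.11. It was 0.86 higher at 15 than at 13.5 months (SE 0.24, edgeR adjusted p = 0.00517), where 39.1% passed. The other contrasts of miR-192-5p did not pass. It was lower at 16.5 than at 15 months with a log2 difference of -0.62 (SE 0.25, edgeR adjusted p = 0.205, 3.45% passing), and at 16.5 than at 12 months with -0.45 (SE 0.21, edgeR adjusted p = 0.132, 19.5% passing). In the wider fit of 323 microRNAs both calls of miR-192-5p missed the threshold, with edgeR adjusted p of 0.0641 and 0.0517. Each was also lost in 14 of the 37 fits that left out a library and computed the factors again, and without library 12 of 13.5 months the difference between 16.5 and 12 months passed (-0.50, edgeR adjusted p = 0.0375). The fall of miR-192-5p from 15 to 16.5 months passed when RUVs factors, which model unwanted variation, were added.

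No contrast of miR-194-5p passed in this fit. Its estimates had the sign of those of miR-192-5p, with -0.39 from 12 to 13.5 months (SE 0.18, edgeR adjusted p = 0.0792) and 0.51 from 13.5 to 15 months (SE 0.21, edgeR adjusted p = 0.0529). Without library 12 of 13.5 months they were -0.47 and 0.54 (edgeR adjusted p 0.0119 and 0.0151). Leaving out library 5 of 12 months (-0.45 and 0.51) or library 11 of 13.5 months (-0.45 and 0.58) also brought both past the threshold, and leaving out library 10 of 16.5 months did so for the second (0.51, edgeR adjusted p = 0.0421). DESeq2 also called the second (0.51, adjusted p = 0.0411), as did edgeR with 4 of the 37 possible TMM references (lowest adjusted p = 0.0299).

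miR-215-5p was higher at both later ages than at 13.5 months. It was 1.02 higher on the log2 scale at 15 than at 13.5 months (SE 0.24, edgeR adjusted p = 0.00333), in a contrast in which 9.91% of the 323 microRNAs passed in either direction and 3.41% were called higher. It was 0.94 higher at 16.5 than at 13.5 months (SE 0.20, edgeR adjusted p = 3.41e-04), where 26.6% passed and 11.8% were called higher. Between 15 and 16.5 months the difference was -0.08 (SE 0.25, edgeR adjusted p = 0.979), where 0.31% passed. From 12 to 16.5 months the difference was 0.53 (SE 0.21, edgeR adjusted p = 0.0845), with 14.2% passing, and without library 1 of 12 months, the highest of its age, it was 0.77 (edgeR adjusted p = 0.0130). DESeq2 called it with all libraries (0.52, adjusted p = 0.0479).

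**Figure D2:**
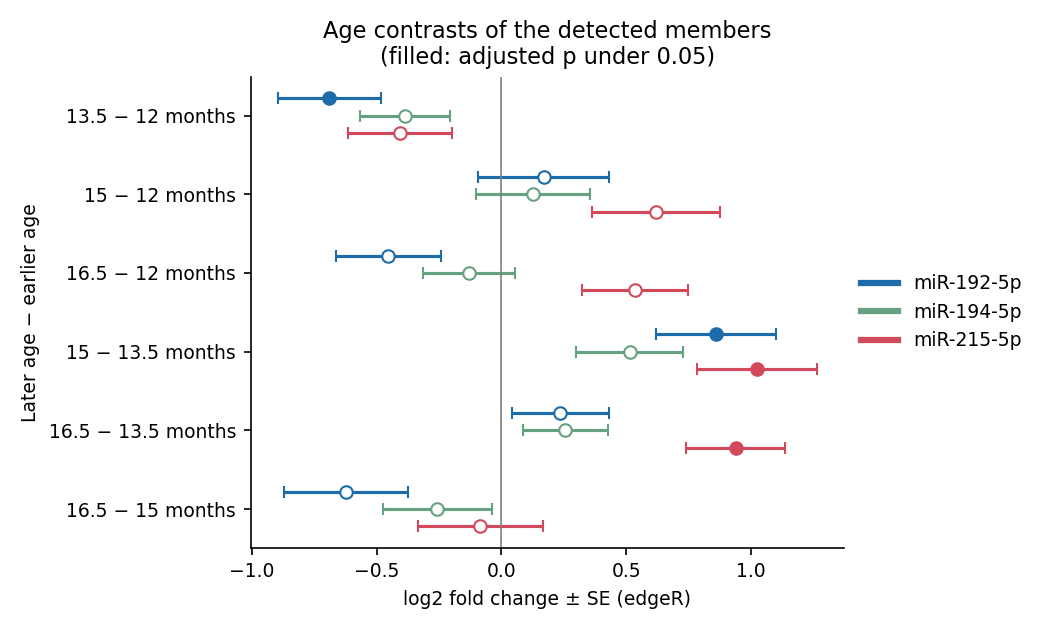
Log2 fold changes (later minus earlier age) with standard errors for the 3 detected members in the 6 age contrasts, filled where edgeR's adjusted p was under 0.05. Values of miR-215-5p are from the fit of 323 microRNAs, those of miR-192-5p and miR-194-5p from the fit of 87. miR-192-5p has 2 filled points, at -0.69 and 0.86, miR-215-5p has 2, at 1.02 and 0.94, and miR-194-5p has none.

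To see whether the members varied together between libraries, log2(CPM + 1) was correlated within each age that had at least 6 libraries. That gave 9 relations, and p-values were adjusted over these. miR-192-5p and miR-194-5p, partners in the chromosome 19 cluster, varied together at 2 of the 3 ages tested. At 13.5 months Pearson's r was 0.85 and Spearman's rho 0.79 (12 libraries, permutation test, p = 5.1e-04 and 0.00314, adjusted p = 0.00459 and 0.0141). At 16.5 months r was 0.81 and rho 0.93 (11 libraries, permutation test, p = 0.00332 and 1.2e-04, adjusted p = 0.0149 and 0.00108). At 12 months r was 0.70 and rho 0.65 (9 libraries, exact permutation test, p = 0.0385 and 0.0666, adjusted p = 0.116 and 0.200), which did not pass, but without library 3 r was 0.85 (exact permutation test, adjusted p = 0.0292).

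Without the 2 libraries farthest from the median of miR-192-5p the relation held at 16.5 months (r = 0.83, permutation test, adjusted p = 0.0303). At 13.5 months r was then 0.63 (permutation test, p = 0.0460, adjusted p = 0.207), so the call was lost and the sign kept. At 12 months r was 0.38 (exact permutation test, adjusted p = 0.666). Leaving out extremes narrows the range of miR-192-5p and leaves fewer libraries, so a lost call cannot be laid on those 2 libraries alone. Without library 12 alone r at 13.5 months was 0.72 (permutation test, adjusted p = 0.0438). Sequencing depth moved with both members at 16.5 months. There r with the log2 of the reads outside miR-486 was 0.79 for miR-192-5p and 0.87 for miR-194-5p (9 relations, permutation test, adjusted p = 0.0193 and 0.00297), and without the 2 libraries farthest from the median depth it was 0.70 and 0.78 (permutation test, adjusted p = 0.153 and 0.133). Its part in their correlation was not tested. At 12 and 13.5 months r with depth lay between -0.12 and 0.17 for these 2 members.

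No relation of miR-215-5p with either of the others passed with TMM scaling. Its r with miR-192-5p, which carries the same seed, was 0.44 at 12 months, -0.12 at 13.5 months and 0.14 at 16.5 months. Its r with miR-194-5p, encoded beside it on chromosome 1 and again on chromosome 19, was 0.30, -0.12 and 0.10. The lowest adjusted p of these 6 relations was 0.532 (permutation tests), and with 9 to 12 libraries an age only strong relations can pass. The result also depended on the scaling. Scaling by the total count alone brought all 6 past the threshold, with r of 0.73 and 0.79 at 13.5 months.

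**Figure D3:**
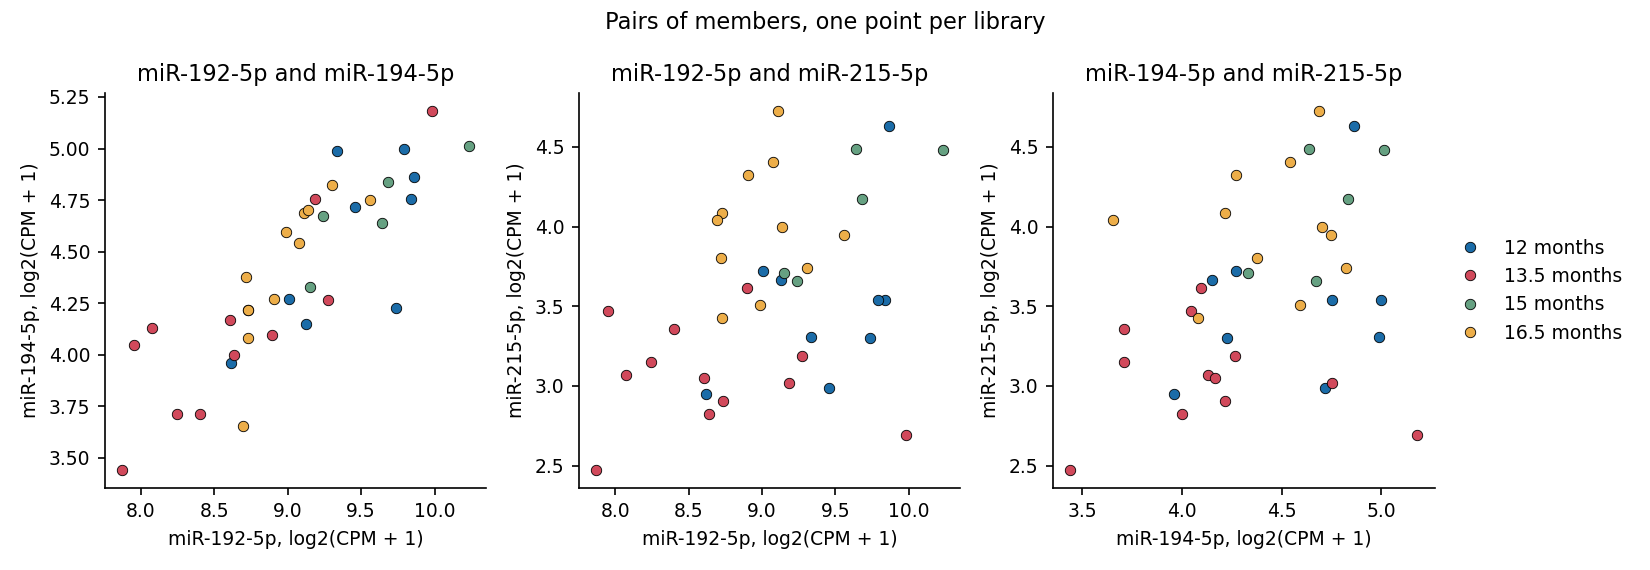
Each pair of detected members plotted against each other as log2(CPM + 1), each point a library coloured by age. Points of miR-192-5p and miR-194-5p lie along a rising line (r within ages 0.70 to 0.85), while those of miR-215-5p scatter (r -0.12 to 0.44).

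Deviations from the age means over all 37 libraries describe the same pattern, with no test, because libraries of different ages share mice and all values share the scaling factors. r was 0.79 between miR-192-5p and miR-194-5p, 0.21 between miR-192-5p and miR-215-5p and 0.13 between miR-194-5p and miR-215-5p. Such values are common in this table. Among the 3741 pairs of the 87 microRNAs, 38.9% had an r beyond 0.5 in either direction, and 4.01% reached at least that of miR-192-5p with miR-194-5p. Only 4 of the other microRNAs were more like miR-192-5p than miR-194-5p was, and 2 were more like miR-194-5p than miR-192-5p was.

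The 3 non-members most like miR-192-5p were miR-21a-5p (r = 0.83), miR-181c-5p (0.83) and miR-148a-3p (0.81). For miR-194-5p they were miR-21a-5p (0.84), miR-148a-3p (0.82) and miR-148b-3p (0.78), and for miR-215-5p they were miR-25-3p (0.49), miR-146b-5p (0.45) and miR-27b-3p (0.42). miR-21a-5p is widely expressed, and miR-148a-3p is high in liver and many other tissues. In these lists of 3, miR-192-5p and miR-194-5p shared 2, which is no separate result given their own r of 0.79. None of theirs was in the list of miR-215-5p, but that rests on the cut at 3. miR-27b-3p ranked 5th for miR-194-5p (0.75) and 9th for miR-192-5p (0.74), and miR-21a-5p ranked 7th for miR-215-5p (0.37).

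**Figure D4:**
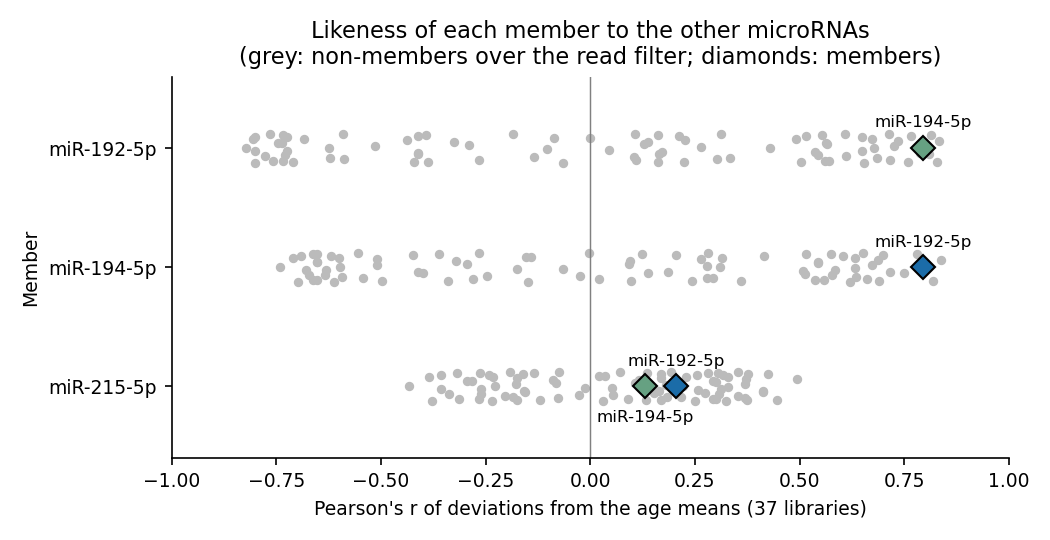
Pearson's r between the deviations of each detected member and those of the microRNAs over the read filter, over 37 libraries, with the other members as diamonds. miR-192-5p and miR-194-5p lie at the high end of each other's row (0.79), and both lie near the middle of the row of miR-215-5p (0.21 and 0.13).

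Ratios between members in the same library do not depend on the scaling factors. They were examined after the values had been seen, and their SDs follow from the SDs and correlations of the members, so they are no separate support for these. Within an age the log2 ratio of miR-194-5p to miR-192-5p had an SD of 0.29, less than that of either member alone (0.39 and 0.47). The log2 ratios of miR-215-5p to miR-192-5p and to miR-194-5p had SDs of 0.57 and 0.56, more than the 0.40 of miR-215-5p alone. Counting error had a median of 0.12, 0.17 and 0.20 in the 3 ratios.

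Of 18 comparisons of ratios between ages 1 passed. The log2 ratio of miR-215-5p to miR-192-5p averaged -6.03 ± 0.52 in the 9 libraries of 12 months (mean ± SD) and -5.08 ± 0.46 in the 11 of 16.5 months. Their difference of 0.95 had an exact permutation p of 7.5e-04 (two-sided, adjusted p = 0.0135 over 18 comparisons), and 88 of the 99 pairs of libraries had the higher ratio at 16.5 months. In geometric means miR-215-5p had 1.53%, 1.86%, 2.11% and 2.95% as many reads as miR-192-5p, in order of age. The ages overlapped, with the highest 12-month library at -5.29 and the lowest 16.5-month library at -5.70. The call held without any single library (adjusted p 0.00738 to 0.0288, permutation tests).

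The ratio of miR-194-5p to miR-192-5p varied less. In geometric means miR-194-5p had 3.28%, 4.16%, 3.25% and 4.04% as many reads as miR-192-5p, in order of age. None of its 6 comparisons passed, although 4 had an unadjusted p between 0.0226 and 0.0435 (exact permutation tests, adjusted p 0.0662 to 0.0978). The ratio of miR-215-5p to miR-194-5p was 46.7%, 44.6%, 64.9% and 73.1% in order of age, and its lowest adjusted p was 0.0591 (permutation test), for 16.5 against 13.5 months.

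**Figure D5:**
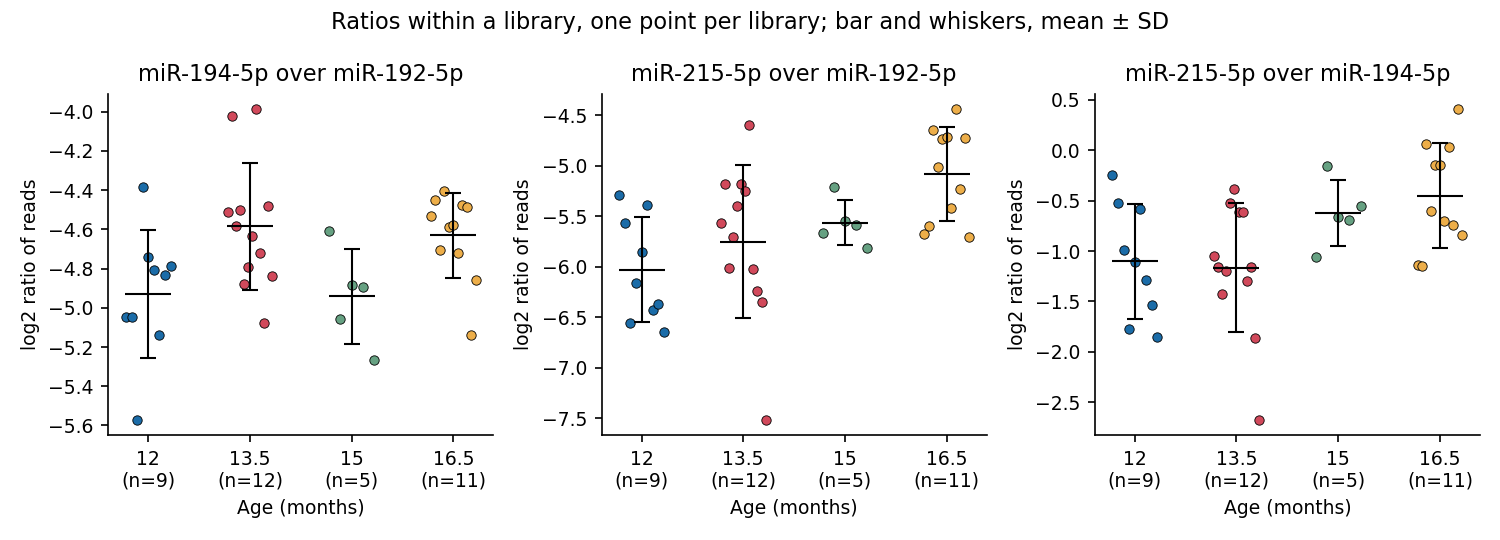
Log2 ratio of reads between pairs of members within a library, by age in months, each point a library, with the mean ± SD. The ratio of miR-215-5p to miR-192-5p rises from a mean of -6.03 at 12 months to -5.08 at 16.5 months, while the means of miR-194-5p to miR-192-5p stay between -4.94 and -4.59.

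miR-194-5p has a table row for each of its 2 precursors, and these rows differed slightly although the mature sequence is the same. The second row was higher in 37 of 37 libraries, by 2.53% to 18.8% of its reads (median 5.80%). A read was counted within a window from 2 bases before to 5 bases after the mature strand, and the windows are shown because their flanks are the only letters that differ between the 2 copies. The mature strand is in capitals.
Mir194-1: ggUGUAACAGCAACUCCAUGUGGAcugug
Mir194-2: ucUGUAACAGCAACUCCAUGUGGAagugc
Reads of the mature letters alone cannot be assigned to a copy, so no value here is particular to the chromosome 1 or chromosome 19 copy. The second row in place of the first gave 7739 reads in all.

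Blood-cell and tissue markers put these levels in context. Of 10 microRNAs of gut and other epithelium, including the miR-200 family, 0 passed the filter on 100 reads, 8 passed that on 1 read and 4 of these were called for age, beside the 32.2% of that fit. Their summed level lay between 10.2 and 51.4 CPM at 12 months, 11.9 and 33.3 CPM at 13.5 months, 9.12 and 36.7 CPM at 15 months, and 10.5 and 31.6 CPM at 16.5 months. The medians of this sum were 14.1, 25.0, 17.5 and 14.8 CPM in order of age. In each library miR-192-5p alone was above that sum. The 4 liver-enriched microRNAs other than miR-122 summed to medians of 69.1, 101, 84.8 and 52.0 CPM in order of age, nearly all of it miR-148a-3p, and 0 of the 2 that could be tested were called.

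Of the blood-cell lists, too, several microRNAs were called for age, in a fit in which 58.6% of all microRNAs were. Of 6 leukocyte microRNAs 4 passed the filter on 100 reads and 3 of these were called, miR-223-3p, miR-142a-5p and miR-342-3p, but not the lymphocyte microRNA miR-150-5p. Their summed level lay between 2483 and 3600 CPM at 12 months, 1269 and 3303 at 13.5 months, 2185 and 3411 at 15 months and 2569 and 4743 at 16.5 months. Most of this sum was miR-142a-5p, with a median of 2689 CPM over all libraries. The median of the sum was lowest at 13.5 months (2097 CPM), the age at which the detected members had their lowest means. The sums of the gut and liver-enriched lists went the other way, with their highest medians at that age (25.0 and 101 CPM). Of 7 red cell microRNAs 6 passed the filter and 4 were called, miR-92a-3p, miR-451a, miR-144-5p and miR-16-5p. The sum for these 7 lay between 472706 and 1675843 CPM at 12 months, 514951 and 3185539 at 13.5 months, 922629 and 2075309 at 15 months and 637557 and 1720395 at 16.5 months, with miR-486 counted under both names. Its median was lowest at 12 months (754672 CPM).

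The deviations of miR-192-5p were related to those of single blood-cell microRNAs in both directions. Among the red cell microRNAs over the 100-read filter, r over 37 libraries was 0.76 with miR-451a, 0.49 with miR-16-5p and 0.16 with miR-144-5p. It was -0.41 with miR-486a-5p and its identical miR-486b-5p row, and -0.73 with miR-92a-3p. Among the leukocyte microRNAs over that filter, r was 0.57 with miR-223-3p, 0.54 with miR-142a-5p, -0.10 with miR-342-3p and -0.75 with miR-150-5p of lymphocytes. The part of these blood-cell microRNAs in the changes of the members was not tested. Of 5 microRNAs of striated muscle, miR-1a-3p and miR-208b-3p were at 0 in every library and miR-206-3p and miR-499-5p had 2 and 6 reads in all. The fifth, miR-133a-3p, had 1530 reads, was seen in 37 of 37 libraries and was called for age in the fit of 323 microRNAs (edgeR adjusted p = 0.0266). Of 4 microRNAs of endothelium and smooth muscle 3 could be tested there and 0 were called. In whole blood fewer cells of a type and less RNA per cell cannot be told apart.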

How the data were processed

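Small RNA libraries of mouse blood were read as 50-base single ends on an Illumina HiSeq2000. The authors trimmed adapters with cutadapt, checked reads with FastQC 0.11.5, discarded reads under 18 bases and quantified with miRDeep2 on mm10 with no mismatch. The authors deposited raw read counts (2241 rows, 1915 mature microRNAs) and a normalized signal, the counts of the first rows times 1 factor per library (100% of values, relative tolerance 1e-06). How these factors were made is not given in the sources used here. 0 columns of per-sample values were left out.

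Every microRNA was represented by its first row. Counts were tested with edgeR 4.0.16 (R 4.3.3), with TMM factors, all 37 libraries in 1 fit and Benjamini-Hochberg adjustment at 0.05. Standard errors are the log2 fold change over the square root of F. DESeq2 1.42.0, RUVs factors, scalings, filters, summed rows and left-out libraries were alternatives. The study tested with DESeq2 and RUVs factors whose number is not given, and the factors here were computed from the published formula. Correlations of log2(CPM + 1) were tested by permutation in NumPy 2.4.6, as were ratios, for which 0.5 reads were added to each count. The tests were exact if either group held under 10 libraries and used 100000 resamples if not. The scripts were tested on simulated data. Depth outside miR-486 was 140292 to 1131713 reads, and intervals cover counting error only, as PCR copies cannot be told from molecules.

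The text names the members, their opposite arms, the 3 non-members most like each, and marker lists with their members over the filter. Libraries were grouped by the labelled age. The members and lists were chosen with earlier results of these data known. Further alternatives were added after seeing the data.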

Additional observations from a re-analysis of the deposited data

Results flagged for a closer look

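In the 12 groups of 5 or 9 libraries examined (3 levels and 3 ratios at 12 and 15 months) 1 value stood apart from the others of its age. miR-215-5p in library 1 of 12 months was at 23.7 CPM, the next library of that age had 12.2 CPM, and the gap made up 0.678 of the whole range, above Dixon's 95% limit for 9 libraries. Chance alone flags about 1 in 20 groups. The same library had the highest miR-192-5p value of its age (930 CPM, next 915) and was not the highest for miR-194-5p (28.1 CPM).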

How the results depend on the processing

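The age test called 2 of the 3 detected members. It called 0 with the total count as the only scaling, 1 without a read filter, 1 to 2 over the 37 choices of TMM reference library, and 1 to 3 when 1 library was left out, or 2 to 3 with the factors kept. Over the TMM references the edgeR adjusted p lay between 0.00263 and 0.122 for miR-192-5p, over the threshold with 1 reference (library 5 of 13.5 months), and between 0.0871 and 0.644 for miR-194-5p. miR-194-5p was called with 2 RUVs factors (0.00817).

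From 12 to 13.5 months 1 member was called. The count was 2 with 2 RUVs factors and with the TMM factors of the 100-read filter, and 0 with total count only, with the filter of 1 read, without a filter and with the least favourable TMM reference. From 13.5 to 15 months 2 were called, against 0 with total count only and 1 with the filter of 1 read, without a filter and with that reference, and 3 with DESeq2, with 1 or 2 RUVs factors in edgeR, with 1 in DESeq2, with median-ratio size factors, with the second row of miR-194-5p and with 4 of the 37 references. From 13.5 to 16.5 months 1 was called, against 3 with 2 RUVs factors and 2 with 3 RUVs factors. From 12 to 15 months 0 were called, and 1 with 3 RUVs factors. From 12 to 16.5 months 0 were called, and 1 with DESeq2, with 1 or 2 RUVs factors in edgeR, with 1 in DESeq2 and with the most favourable reference. From 15 to 16.5 months 0 were called, and 1, miR-192-5p, with any number of RUVs factors. Leaving out a library gave 0 to 2, 1 to 3, 1 to 1, 0 to 0, 0 to 1 and 0 to 0 calls in this order, and with the factors kept 1 to 2, 2 to 3, 1 to 3, 0 to 0, 0 to 1 and 0 to 0. All 15 lost calls of miR-192-5p came with library 5 of 13.5 months as the reference, and the cause of the other changes was not tested.

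The replicate number as a block called 3 members for age (miR-194-5p 0.0104), 2 from 12 to 13.5 months, 3 from 13.5 to 15 months, 1 from 12 to 16.5 months and 3 from 13.5 to 16.5 months, and 0 of the 18 log2 ratio comparisons. There the ratio of miR-215-5p to miR-192-5p differed by 0.98 between 12 and 16.5 months (exact paired permutation, adjusted p = 0.0703). Each ratio comparison with 15 months had only 5 pairs. The lowest p this paired permutation can reach is then 0.0625, so these comparisons could not pass, yet they entered the adjustment of the others. The labels do not say whether the replicate numbers pair the libraries. Deviations of 44 same-numbered pairs had a mean r of -0.035 (-0.86 to 0.83), with 20 over 0.1. These values show no pairing but cannot exclude it, because many microRNAs vary together between libraries.

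Scaling by the total alone brought 9 of the 9 correlations past the threshold, against 2. r of miR-215-5p at 13.5 months was then 0.73 with miR-192-5p and 0.79 with miR-194-5p. These 2 were 0.51 and 0.55 with the total outside miR-486, 0.085 and 0.12 with the authors' normalized values, and -0.47 to 0.19 and -0.55 to 0.21 without single libraries. At 16.5 months the ranges without single libraries were -0.019 to 0.25 and -0.070 to 0.21. There r of miR-194-5p with miR-215-5p was -0.14 without the 2 farthest libraries, and rho was -0.073. Leaving out a library gave 2 to 3 correlations past the threshold, 3 without library 3 of 12 months. Of the log2 ratio comparisons 1 to 4 passed when a library was left out, 4 without library 4 of 12 months or 1 of 16.5 months, 3 without library 1 of 12, 8 of 13.5, 1 of 15 or 10 of 16.5 months, and 2 without library 5, 6 or 7 of 13.5 or 2 of 16.5 months.

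Among the contrasts named above, those with another sign were uncalled. With total count only miR-194-5p differed by -0.094 between 13.5 and 15 months and miR-215-5p by 0.23 between 15 and 16.5 months. The latter lay between -0.25 and 0.027 without single libraries, and was 0.036 and 0.017 without libraries 2 and 5 of 15 months with the factors kept. Of the 8 contrasts and 12 ratio comparisons not named, 0 passed, and 6 and 3 had another sign under at least 1 alternative. Depth limits miR-122-5p, at 0 in 27 libraries, and miR-215-5p, with as few as 6 reads.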
